A study of Mus musculus with 24 samples.

Results

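Keratins and keratin-associated proteins were followed across arrays of the mouse tibialis anterior, a fast muscle of the lower leg. The members were the 57 probe rows whose annotated symbol was Krt followed by digits or began with Krtap, out of 26423 rows in the table. They stood for 52 of the 17742 named genes of the table, with 51 rows for 49 keratin genes and 6 rows for 3 keratin-associated genes, Krtap13, Krtap14 and Krtap15. The set was put together as one expected to be silent in muscle, so the share of its rows above background and any rise in the knockout, animal by animal, were examined.

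HIRA deposits the histone variant H3.3 into chromatin independently of DNA replication. All animals were 6 months old, of mixed C57BL6/J;129S1/SvImJ background, and all carried a Cre recombinase at the Myf6 locus, which is active in differentiating and mature muscle fibres. The 4 control animals were Myf6 cre/+; Hira flox/+ and thus kept 1 intact copy of Hira in their fibres, while the 4 knockout animals were Myf6 cre/+; Hira flox/- and carried the null copy in every cell. Each RNA was put on 3 arrays, for 24 arrays in all, and the animal was the replicate, named here by its group and a number from 1 to 4 that pairs nothing across groups.

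Keratins are the intermediate filament proteins of epithelia, and they assemble only as pairs of an acidic type I and a basic type II chain. Krt8 and Krt18 form the pair of simple, single-layered epithelia, Krt5 and Krt14 that of the basal epidermis, and Krt1 and Krt10 that of the layers above it. The hair follicle adds keratins of the inner root sheath and of the hair shaft, where keratin-associated proteins crosslink the filaments. In striated muscle the main intermediate filament protein is desmin, and small amounts of keratins 8 and 19 have been described at costameres, the sites where the outer myofibrils are anchored to the fibre membrane.

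The deposited intensities had been brought to a common median of 626 on all 24 arrays, but the low end of the scale differed, with a 5th percentile of -2.35 to 125 on the single arrays. The level of 125, the highest of these percentiles, served as background, and values under 38.8, the 5th percentile of all values, were set to that floor before log2 was taken. Levels of a group are geometric means over its animals. The 10 rows of 9 fast muscle fibre genes, such as Pvalb, Actn3 and Aldoa, were all above background in both groups, and none passed the test between groups. The single Hira row read 462, 554, 485 and 509 in control animals 1 to 4 and 397, 633, 368 and 454 in the knockout animals. The groups overlapped, with a difference of -0.15 ± 0.17 (log2, SE, 4 animals per group, limma adjusted p = 0.643). Where its probe lies relative to the deleted part is not known here, and the row therefore does not check the genotype labels.

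Most keratin rows were not silent by the background level. In the control animals 44 of the 57 rows, or 77.2%, lay above 125, against 79.1% of all rows of the table. In the knockout animals it was 43 rows, or 75.4%, against 78.7% of all rows. Both shares were thus near those of the whole table. The only row whose group mean crossed the level was that of Krt75, a keratin of the companion layer of the hair follicle, which was above it in the controls and below it in the knockout.

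Counted by animal, 44, 41, 44 and 45 keratin rows were above background in control animals 1 to 4. In knockout animals 1 to 4 the counts were 43, 45, 42 and 44. The groups overlapped, and the lowest count belonged to control animal 2, whose arrays also had the lowest range of 5th percentiles, from -2.35 to 32.3. Per array the count ran from 40 to 54 rows, and the array with 54 was the one with the 5th percentile of 125. The part of the low end in these counts was not tested beyond leaving out the 2 arrays with the highest low end, which left 44 and 43 rows.

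**Figure D1:**
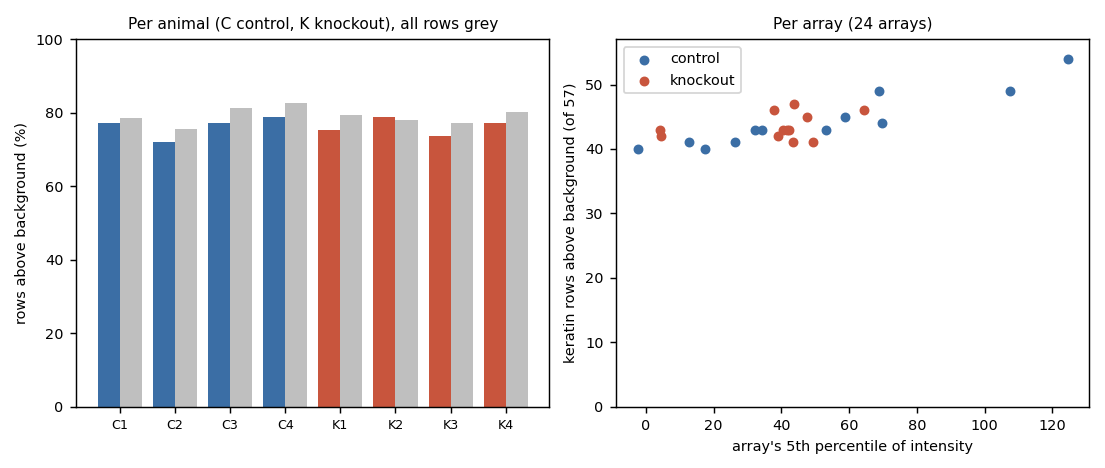
Left, percent of the 57 keratin rows (colour) and of all 26423 rows (grey) above an intensity of 125 in control animals C1 to C4 and knockout animals K1 to K4; right, each point is an array, with its 5th percentile of intensity on the x axis and the number of keratin rows above background on the y axis. The keratin share lay between 71.9% and 78.9% of rows in every animal, and the array with the highest 5th percentile had 54 rows above background.

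A call above background was common on this array also for gene families chosen as mainly foreign to muscle. Of 544 olfactory receptor rows, 54.8% were above 125 in the controls and 52.4% in the knockout. The shares were 62.5% and 60.4% for 48 rows of vomeronasal receptors, 55.0% and 52.5% for 40 rows of defensins, and 80.0% in both groups for 25 rows of Sprr and Lce genes, which encode proteins of the cornified envelope of skin. The keratin shares were thus higher than those of the receptor and defensin families and close to that of the Sprr and Lce rows, and none of these differences was tested. The probe sequences were not used here, so what part of an intensity comes from the named transcript is not known, and the brightness of different rows is not an order of transcript amounts.

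Of the 57 rows, 40, or 70.2%, were above background in all 8 animals, against 73.3% of all rows. A further 9 rows, or 15.8%, were above it in no animal, against 15.7% of all rows. These 9 were Krt12 of the cornea, Krt15 of basal cells, Krt28 and Krt73 of the inner root sheath, Krt39 and Krt40 of the hair, and the dimmer rows of Krtap13, Krtap14 and Krtap15. The other 8 rows, of Krt4, Krt8, Krt20, Krt25, Krt36, Krt75, Krt76 and Krt77, were above background in some animals. At the level itself, the rows just inside in the controls were Krt4 at 142 and Krt20 at 147, and those just outside were Krt76 at 113 and Krt77 at 99.0. In the knockout Krt20 at 130 and Krt4 at 143 were just inside, and Krt75 at 115 and Krt77 at 104 just outside.

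**Figure D2:**
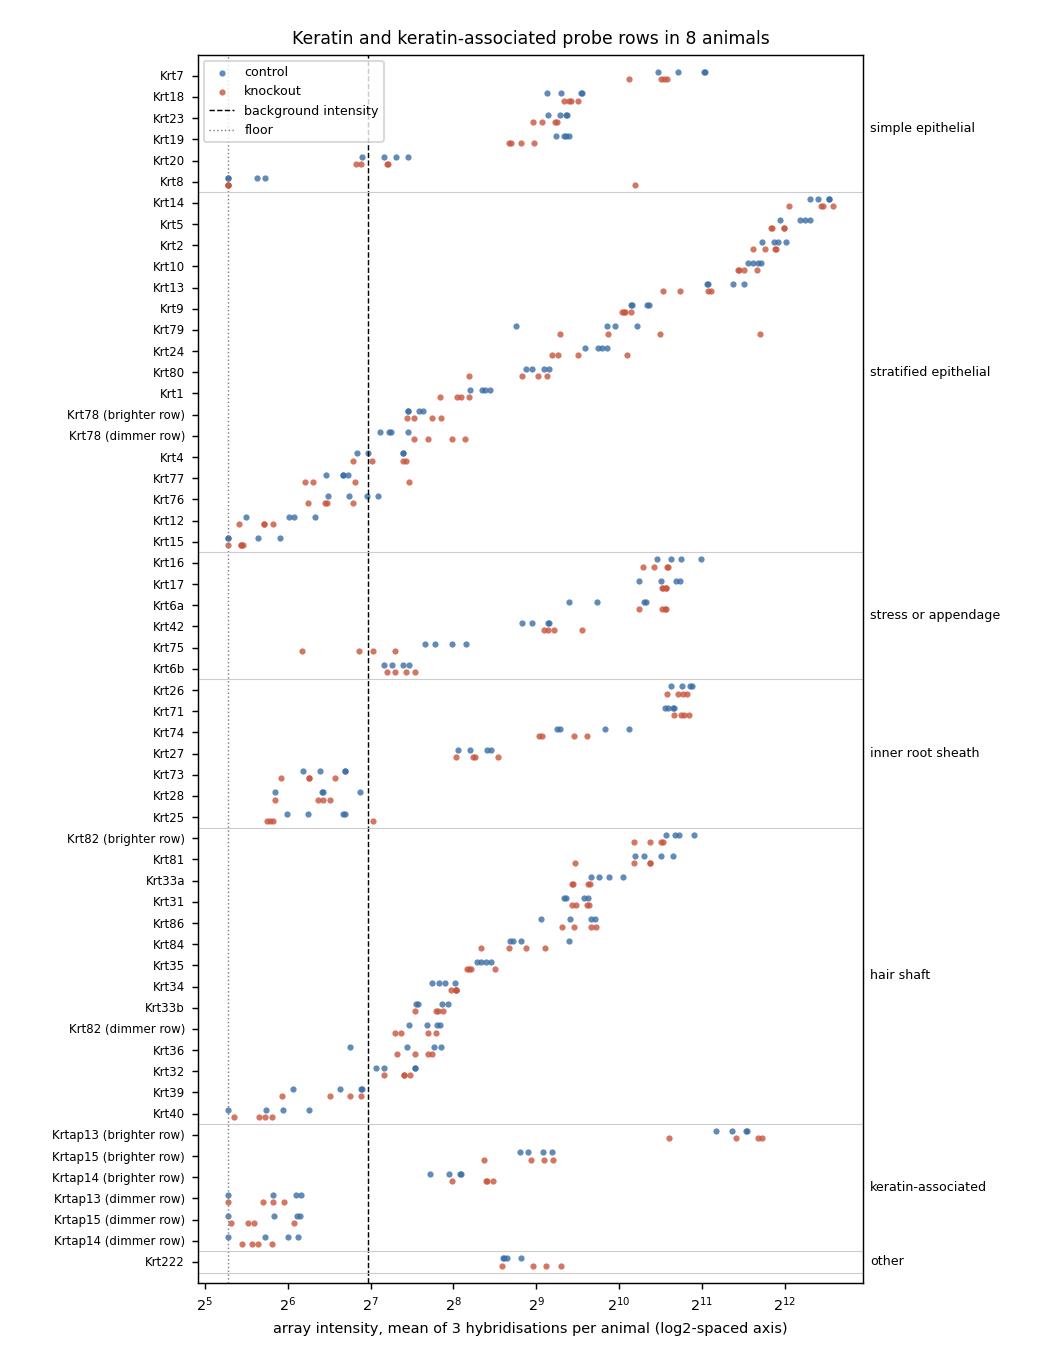
Each point is an animal (blue control, red knockout), placed by its mean intensity on a log2-spaced axis; rows of points are the 57 keratin probe rows, ordered by class and brightness, with the background of 125 dashed and the floor of 38.8 dotted. Points of both groups lay close together for most rows, and knockout animal 2 stood at 1171 in the Krt8 row, where the other 7 animals were at 38.8 to 53.0.

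The difference between the groups was small for most of the set. The median difference, knockout minus control, was -0.10 (log2) over the 57 rows and -0.08 over all rows, and 51 of the 57 rows differed by less than 0.5 in either direction. Lower values in the knockout were seen in 37 keratin rows, or 64.9%, against 61.3% of all rows. Under quantile normalization the number was 32 and under cyclic loess 31, with 52.9% and 50.6% of all rows, so the count moved with the scaling, as did that of all rows.

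In limma, with Benjamini-Hochberg adjustment over all 26423 rows and a threshold of 0.05, 3 keratin rows passed, or 5.26%, against 7% of all rows. Higher in the knockout was 1 row, or 1.75%, against 3.23% of all rows, and lower were 2 rows, or 3.51%, against 3.77%. At an unadjusted p under 0.05 there were 10 keratin rows, or 17.5%, against 21.5% of all rows. The share of keratin rows that changed was therefore near or below that of the table as a whole. The rows that passed were Krt78, which rose, and Krt75 and Krt19, which fell.

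**Figure D3:**
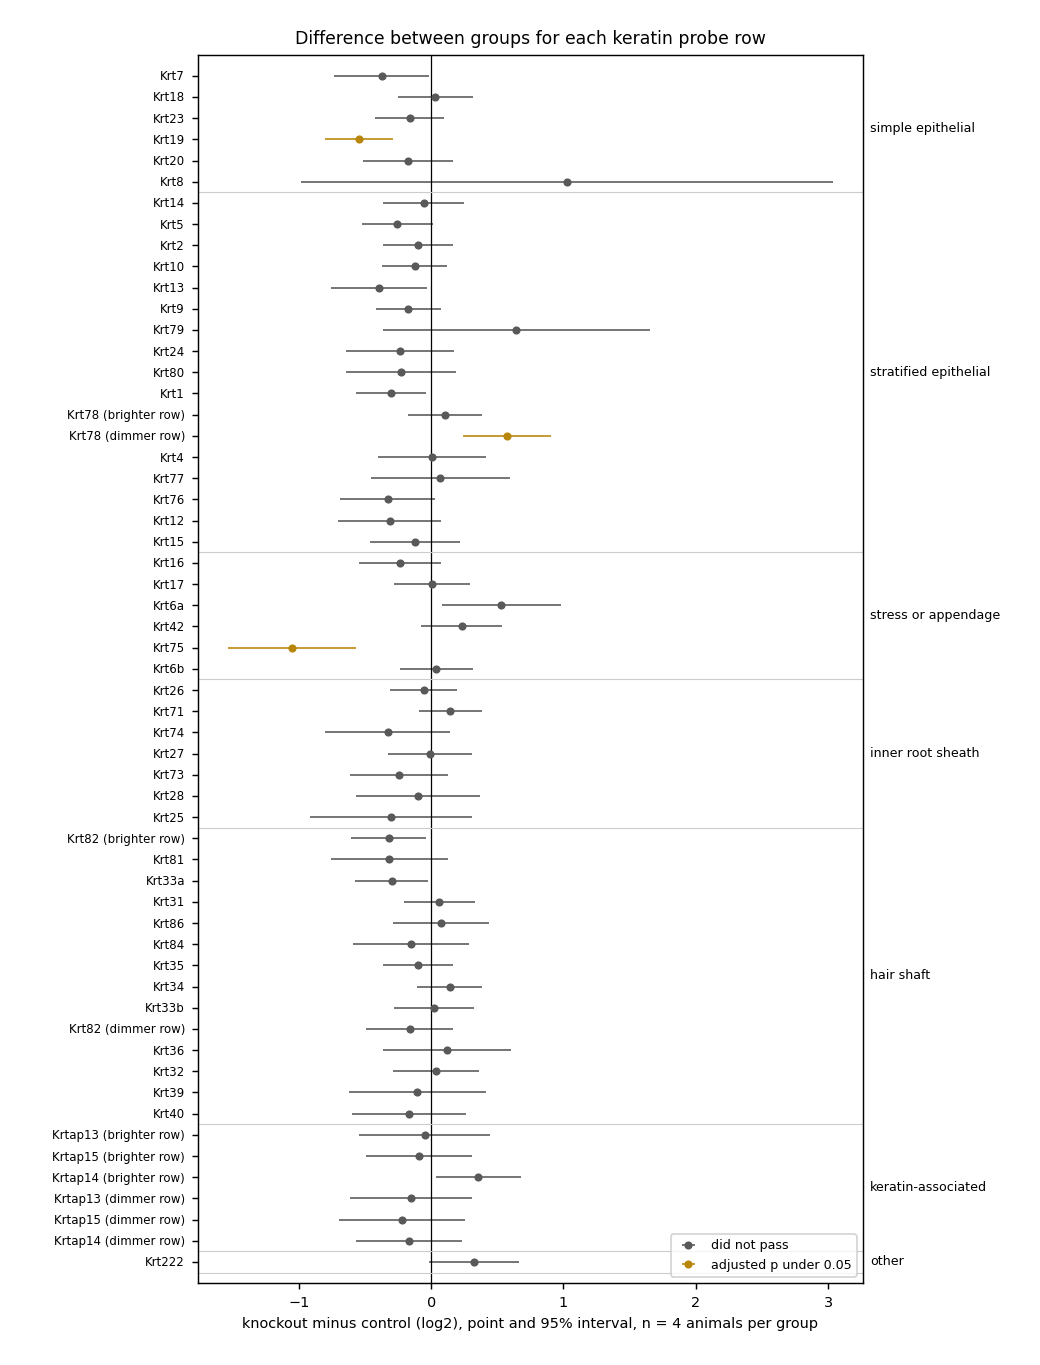
Difference between the groups (knockout minus control, log2) for each of the 57 keratin probe rows, with its 95% interval from limma, 4 animals per group; gold points passed the test at an adjusted p under 0.05. Krt75, Krt19 and 1 row of Krt78 passed, and the widest interval, from -0.98 to 3.04, belonged to Krt8.

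Krt75 had the largest fall of the set. Its row read 220, 201, 253 and 285 in control animals 1 to 4. In knockout animals 1 to 4 it read 157, 71.9, 117 and 130. All 4 knockout animals were below all 4 controls, with knockout animal 2 the lowest. The group levels were 238 and 115, a difference of -1.05 ± 0.22 (log2, SE, n = 4 animals per group, limma adjusted p = 0.016), and the exact two-sided permutation p was 0.0286, the smallest that 4 against 4 animals can give. Since the knockout level was below background, the row was at least 1.90-fold brighter in the controls. The call held without any 1 animal but was lost when all arrays entered with the animal as a random block (limma adjusted p = 0.0587, and 0.0735 with a replicate block for the hybridisation number).

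Krt19, a type I keratin without a tail domain that is found in simple and ductal epithelia, fell as well. The control animals read 649, 656, 672 and 602. The knockout animals read 501, 407, 416 and 450. The groups did not overlap, and the highest knockout animal, 501, was below the lowest control, 602. Krt19 was 1.46-fold lower in the knockout, by -0.54 ± 0.12 (log2, SE, n = 4 animals per group, limma adjusted p = 0.018, exact permutation p = 0.0286). Without knockout animal 3 the limma adjusted p was 0.0663, with a difference of -0.51.

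Krt78, a type II keratin of stratified epithelia, had 2 rows, and 1 of them passed. That row read 152, 139, 150 and 175 in the control animals and 207, 252, 282 and 184 in the knockout animals. The groups did not overlap, but control animal 4 and knockout animal 4 lay close together. The rise was 1.49-fold, 0.57 ± 0.15 (log2, SE, n = 4 animals per group, limma adjusted p = 0.046, exact permutation p = 0.0286). Leaving out any 1 of 7 animals ended the call, with limma adjusted p from 0.0541 to 0.137, and it held only without knockout animal 4. The other row of Krt78 went from 185 to 200, with a difference of 0.11 ± 0.13 (limma adjusted p = 0.655), and its groups overlapped, so the rise was not seen in both rows of the gene.

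**Figure D4:**
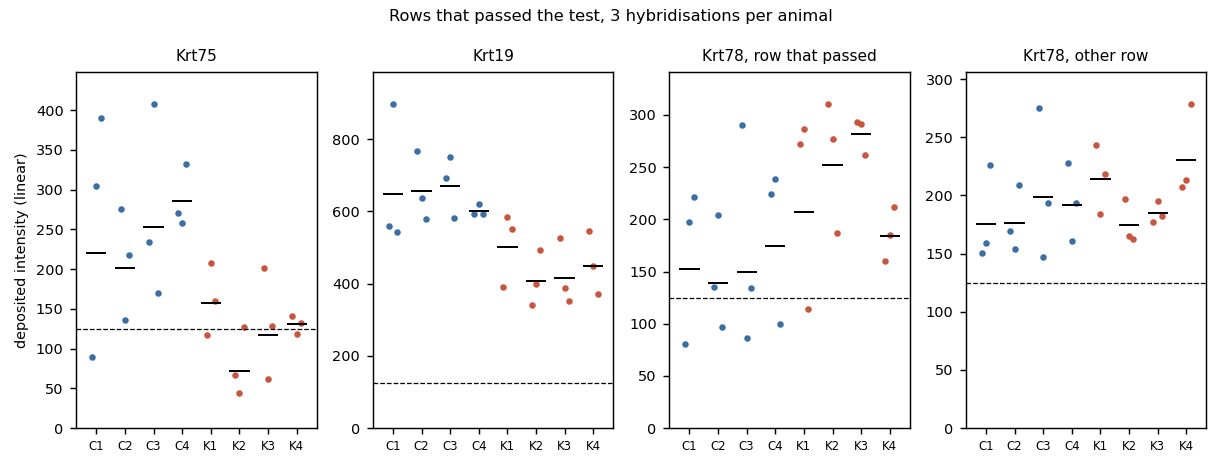
Deposited intensity on a linear axis in each of the 3 hybridisations (points) of control animals C1 to C4 (blue) and knockout animals K1 to K4 (red), with the animal's mean of floored log2 values as a black bar and the background of 125 dashed. The bars of Krt75 and Krt19 lay lower in all knockout animals and those of the first Krt78 row higher. Hybridisations of the same animal differed widely for Krt75, from 89.2 to 390 in control animal 1, and for the first Krt78 row, from 86.2 to 290 in control animal 3.

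The groups of animals did not overlap in 7 keratin rows, or 12.3%, against 15.6% of all rows. They were higher in the knockout in 2 rows, against 6.37% of all rows, and lower in 5, against 9.22%. Besides the rows named above, these were Krt1 of the upper epidermis (325 in control, 264 in knockout, -0.30 ± 0.12, limma adjusted p = 0.175), Krt33a of the hair cortex (915 and 744, -0.30 ± 0.13, limma adjusted p = 0.197) and the brighter row of Krt82 of the hair cuticle (1688 and 1351, -0.32 ± 0.13, limma adjusted p = 0.175). Krt71, a type II keratin of the inner root sheath, lay higher in all knockout animals (1572 and 1738, 0.15 ± 0.11, limma adjusted p = 0.453), although its highest control and lowest knockout animal were at 1619 and 1621. None of these 4 passed the test on animal means. Krt1 passed when all arrays entered with the animal as a random block (limma adjusted p = 0.0373, and 0.0461 with the replicate block). Krt33a, Krt82 and Krt71 were not followed singly in that fit.

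Krt8, the type II keratin of simple epithelia, stood out in a single animal. It read 38.8, 38.8, 49.6 and 53.0 in the control animals, all below background, and 38.8 in knockout animals 1, 3 and 4, which is the floor. Knockout animal 2 read 1171, at least 9.37-fold above the background level that no other animal reached. Its 3 arrays read 1009, 1212 and 1314, and the other 21 arrays ran from -44.7 to 98.8. The high value was thus present in each hybridisation of that animal and on no array of another. The difference between the groups did not pass the test (1.03 ± 0.91, log2, SE, n = 4 animals per group, limma adjusted p = 0.542, exact permutation p = 1), and without knockout animal 2 the difference was -0.20 (limma adjusted p = 0.467), with all animals below background.

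Krt18, the type I partner of Krt8, did not follow. It read 753, 744, 563 and 628 in the control animals and 727, 685, 671 and 649 in the knockout animals, so knockout animal 2 lay inside the range of the others. The difference was 0.03 ± 0.13 (log2, SE, n = 4 animals per group, limma adjusted p = 0.908). Krt7, a further keratin of simple epithelia, was lowest in that animal, at 1110 against 1421 to 2098 in the other 7.

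Krt79, a type II keratin of the hair follicle infundibulum and the ducts of the sebaceous glands, was the second row in which knockout animal 2 stood apart. The control animals read 927, 432, 991 and 1192, and the knockout animals 936, 3339, 1441 and 625. The 3 arrays of knockout animal 2 read between 3040 and 3547, and the other 21 arrays between 213 and 1867. The group difference was 0.64 ± 0.46 (log2, SE, n = 4 animals per group, limma adjusted p = 0.437), and 0.19 without that animal. Knockout animal 2 was the highest of the 8 animals in 8 keratin rows, or 14.0%, against 16.9% of all rows. Besides Krt8 and Krt79 these were Krt77 (177 against 73.8 to 112) and Krt25 of the inner root sheath (130 against 53.8 to 103), both close to background, and rows well above it. The latter were Krt42 (751 against 456 to 593), Krt24 (1093 against 586 to 930), Krt35 of the hair shaft (364 against 286 to 350) and Krt6a (1514 against 672 to 1510). For Krt42 and Krt24 all 3 arrays of the animal were above every other array.

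**Figure D5:**
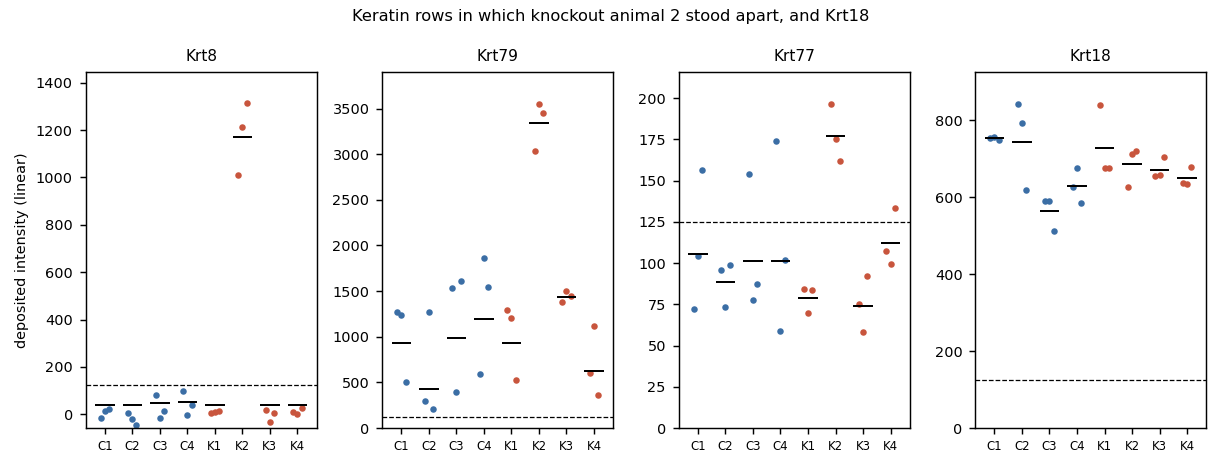
Deposited intensity on a linear axis in each hybridisation (points) of control animals C1 to C4 (blue) and knockout animals K1 to K4 (red), with the animal's mean of floored log2 values as a black bar and the background of 125 dashed. All 3 arrays of knockout animal 2 were above every other array for Krt8 and Krt79, but not for Krt77 or Krt18; bars above the points of Krt8 are at the floor of 38.8.

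At least 2-fold above the highest of the other 7 animals, knockout animal 2 had 2 keratin rows, or 3.51%, against 43 rows, or 0.163%, of the whole table. No keratin row stood so far out in knockout animals 1, 3 or 4, against 0.0151%, 0.235% and 0.0227% of all rows. A 4-fold excess over all other animals was seen in knockout animal 2 for 5 rows of the table, those of Krt8, Lgals2, Gm15760 and 2 rows with no symbol. Knockout animal 3 had such an excess in 11 rows and control animal 3 in 1, none of them keratins, and the remaining animals in no row. Lgals2 encodes a galectin, a sugar-binding protein. Knockout animal 2 was also below all controls in 28 keratin rows, or 49.1%, against 29.6% of all rows. It was above all controls in 11, or 19.3%, against 24.2%. Knockout animals 1, 3 and 4 were below all controls in 14, 18 and 14 keratin rows, or 24.6%, 31.6% and 24.6%, against 24%, 30.2% and 23.2% of all rows. They were above all controls in 11, 9 and 10, or 19.3%, 15.8% and 17.5%, against 17.3%, 19.1% and 21.9%.

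Krt8 and Krt79 lie near each other among the type II keratin genes of chromosome 15, where the gene order runs Krt77, Krt76, Krt4, Krt79, Krt78, Krt8 and Krt18. Between and beside them the excess of knockout animal 2 was not continuous. That animal was also highest for Krt77, at 177 against 73.8 to 112 in the other animals. It read 87.7 for Krt76 against 75.9 to 136 and 111 for Krt4 against 114 to 172. The rows of Krt78 read 252 against 139 to 282 and 174 against 176 to 231. Krt18 read 685 against 563 to 753.

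Upstream sequences are shown for Krt75 and Krt78, which passed the test (Krt19 is named only), for Krt8 and Krt79, which stood out in knockout animal 2, for Krt18, the partner of Krt8, and for Krt71, whose window holds a TATA box motif. They are the 250 bases before the annotated start in RefSeq, build GRCm38.p6, 5′ to 3′ on the gene's strand, and capitals mark the letters TATAAA.
Krt8, chr15:102004343-102004592, minus strand: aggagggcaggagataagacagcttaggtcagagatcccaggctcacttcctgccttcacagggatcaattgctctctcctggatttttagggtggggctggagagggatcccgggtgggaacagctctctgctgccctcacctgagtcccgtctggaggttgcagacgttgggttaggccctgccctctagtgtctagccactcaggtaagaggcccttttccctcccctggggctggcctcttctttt
Krt18, chr15:102027966-102028215, plus strand: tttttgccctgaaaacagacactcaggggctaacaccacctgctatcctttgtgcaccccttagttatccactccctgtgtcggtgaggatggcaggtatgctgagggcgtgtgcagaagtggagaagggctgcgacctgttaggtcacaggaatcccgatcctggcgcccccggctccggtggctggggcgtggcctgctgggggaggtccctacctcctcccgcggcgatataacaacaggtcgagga
Krt79, chr15:101940325-101940574, minus strand: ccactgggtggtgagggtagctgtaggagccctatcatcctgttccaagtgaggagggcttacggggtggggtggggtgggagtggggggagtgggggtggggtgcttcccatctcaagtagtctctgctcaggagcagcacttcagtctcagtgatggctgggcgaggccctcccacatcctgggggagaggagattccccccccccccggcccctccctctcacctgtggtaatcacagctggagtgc
Krt75, chr15:101573905-101574154, minus strand: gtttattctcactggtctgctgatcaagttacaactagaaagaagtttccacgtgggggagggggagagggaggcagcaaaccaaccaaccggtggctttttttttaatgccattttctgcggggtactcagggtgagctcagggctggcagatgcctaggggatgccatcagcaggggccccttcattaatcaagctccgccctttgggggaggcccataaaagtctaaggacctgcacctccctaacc
Krt78, chr15:101954288-101954537, minus strand: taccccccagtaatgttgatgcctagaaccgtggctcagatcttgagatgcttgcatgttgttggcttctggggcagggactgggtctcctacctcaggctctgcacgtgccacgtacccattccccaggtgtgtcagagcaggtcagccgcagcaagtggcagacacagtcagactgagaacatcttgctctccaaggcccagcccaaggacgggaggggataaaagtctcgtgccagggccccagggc
Krt71, chr15:101743098-101743347, minus strand: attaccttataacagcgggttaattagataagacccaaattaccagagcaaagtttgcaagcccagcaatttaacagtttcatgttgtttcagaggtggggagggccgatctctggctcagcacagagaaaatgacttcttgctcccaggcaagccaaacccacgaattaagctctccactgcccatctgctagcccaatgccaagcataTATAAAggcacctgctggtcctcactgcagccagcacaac

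Windows were found for 37 of the 52 member genes, 38 windows in all. The letters TATAAA, searched on both strands, were in 17 of the 38, or 44.7%, against 12.4% of the 32851 windows in the table. In Krt71 the match began 40 bases before the start, at position -40. The windows of Krt8, Krt18, Krt79, Krt75 and Krt78 held no match. The letters TGANTCA, the AP-1 site, searched likewise on both strands, were in 2 member windows, or 5.26%, against 6.75% of all, and both belonged to Krt13. These matches describe the letters in the windows and were not set against the intensities.

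By class, the 6 rows of simple epithelial keratins had a median difference of -0.17 (log2), and Krt19 alone passed the test. Krt7, a keratin of ductal and glandular epithelia, went from 1796 in the control to 1386 in the knockout animals (-0.37 ± 0.16, limma adjusted p = 0.214). The 17 rows of stratified epithelial keratins had a median of -0.12, and 1 of the Krt78 rows was the only one of them to pass. The basal pair Krt14 and Krt5 went from 5569 to 5353 (-0.06 ± 0.14, limma adjusted p = 0.843) and from 4613 to 3868 (-0.25 ± 0.12, limma adjusted p = 0.252). Krt10, the partner of Krt1 in the upper epidermis, went from 3195 to 2932 (-0.12 ± 0.11), and Krt2, another keratin of the upper epidermis, from 3788 to 3542 (-0.10 ± 0.12). Krt13, a type I keratin of internal stratified epithelia such as the oesophagus, went from 2448 to 1864 (-0.39 ± 0.17, limma adjusted p = 0.197). None of these epidermal and internal stratified keratins passed the test.

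The 6 rows of keratins of stress and of skin appendages had a median difference of 0.02, with Krt75 the only one that passed. Krt6a, which is induced in wounded and hyperproliferative epidermis, read 851, 672, 1266 and 1288 in the control animals and 1510, 1514, 1464 and 1213 in the knockout animals. Control animals 3 and 4 overlapped with knockout animal 4, and the difference of 0.53 ± 0.20 did not pass (log2, SE, n = 4 animals per group, limma adjusted p = 0.158). Its usual partners Krt16 and Krt17 differed by -0.24 ± 0.14 and 0.01 ± 0.13 (log2, SE).

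The 7 rows of inner root sheath keratins had a median difference of -0.10, and the 14 rows of hair shaft keratins also -0.10. Neither class had a row that passed in limma, and at an unadjusted p under 0.05 there were 0 and 2 rows. Among the inner root sheath keratins Krt74 had the largest difference, from 787 to 627 (-0.33 ± 0.22, limma adjusted p = 0.395). Krt222, a keratin-like gene in none of these classes, went from 407 to 510 (0.32 ± 0.16, limma adjusted p = 0.255).

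The 6 keratin-associated rows had a median difference of -0.12, 3 of them were above background in both groups, and none passed in limma, with 1 at an unadjusted p under 0.05. Each of the 3 genes had a bright and a dim row, and the bright row was above background in all 8 animals while the dim one was below it in all 8. The bright row of Krtap13 went from 2714 to 2624 (-0.05 ± 0.23, limma adjusted p = 0.924). The rows of Krtap14 moved in opposite directions, 0.36 ± 0.15 for the bright row (249 to 319, limma adjusted p = 0.182) and -0.17 ± 0.18 for the dim one, so the rows of these genes did not read alike.

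Of 38 rows for 32 epidermal genes other than keratins, 2 rose and 2 fell, or 5.26% each way, near the 3.23% and 3.77% of all rows. In this list 27 were above background in each group, 9 were above it in no animal, and the median difference was 0.00. Of the rows that rose, 1 was a row of Sbsn, which encodes the epidermal protein suprabasin (1898 to 3381, 0.83 ± 0.14, limma adjusted p = 0.0055), and 1 a row of Trp63, the regulator of stratified epithelium (1083 to 1755, 0.70 ± 0.14, limma adjusted p = 0.012). The second row of Sbsn went the other way, from 162 to 128 (-0.34 ± 0.17, limma adjusted p = 0.268). The other rows of Trp63 differed by 0.19 ± 0.20 and 0.04 ± 0.20 (limma adjusted p = 0.604 and 0.926), so neither rise was seen in all rows of its gene. Lor, which encodes loricrin of the cornified envelope (530 to 356, -0.57 ± 0.16, limma adjusted p = 0.0495), and Flg2, a filaggrin family member (272 to 200, -0.44 ± 0.12, limma adjusted p = 0.0466), fell. The summed intensity of the list was 24397 to 28095 in the control and 27492 to 30947 in the knockout animals, with knockout animal 2 the lowest of its group. Bright rows weigh most in this sum, such as a row of Dsc3 (5477 to 5341) and the row of Sbsn that rose.

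Of the 14 rows of hair follicle genes other than keratins, 12 were above background in each group and 1 passed the test, or 7.14%, against 7% of all rows. This was Padi1, an enzyme that converts arginine to citrulline in proteins of skin and hair, keratins among them, which rose from 487 to 1598 (1.72 ± 0.15, log2, SE, limma adjusted p = 0.000104). None of the 21 rows for 16 simple epithelial genes passed in limma, with 5, or 23.8%, at an unadjusted p under 0.05, against 21.5% of all rows. Their summed intensity was 12931 to 14060 in the control and 11757 to 12571 in the knockout animals, the highest of the latter being knockout animal 2. Bright rows weigh most in this sum, such as the Prom1 rows that went from 3089 to 2231 and from 1728 to 1371. A dimmer row of Prom1 went the other way, from 311 to 398. Of the 21 rows, 3 were above all other animals in knockout animal 2, as were 16.9% of all rows. In the same animal 17 were below the control mean, and the median over all rows also lay below it, by -0.10 (log2). The 3 were Cdh1, which encodes the adhesion protein E-cadherin (764 against at most 450), Esrp2, an epithelial splicing regulator (1464 against at most 836), and Ovol1, an epithelial transcription factor (253 against at most 168). Among the 17 were both rows of Epcam, an epithelial adhesion molecule (318 against a control mean of 432, and 44.8 against 54.1), and Cldn7, a tight junction protein (353 against 634). The dimmer Epcam row was below background in every animal. Of 10 rows of mesothelial genes, 1 passed in limma, or 10%, against 7% of all rows. At an unadjusted p under 0.05 there were 4, or 40%, against 21.5% of all rows. The median difference of the list was -0.28 (log2), against -0.08 over all rows, and 4 of its rows were above background in no animal. The row that passed was Gpm6a, which fell from 349 to 192 (-0.86 ± 0.13, limma adjusted p = 0.0025). Msln, which encodes mesothelin, went the other way, from 157 to 233 (0.57 ± 0.24, limma adjusted p = 0.199). The summed intensity of the list was 3138 to 4136 in the control and 2311 to 3029 in the knockout animals, most of it from Cldn15 (2130 to 1583, -0.43 ± 0.16, limma adjusted p = 0.155). The part of such cells in the keratin rows was not tested, and in muscle taken whole, fewer cells of a type and less RNA per cell cannot be told apart.

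Of 19 rows for 17 partners of keratin filaments, such as the desmosomal plakins and plakophilins, all were above background and none passed in limma, with 4, or 21.1%, at an unadjusted p under 0.05, against 21.5% of all rows. The smallest p in the list was that of Itgb4, the integrin of hemidesmosomes (1809 to 1311, -0.46 ± 0.14, limma adjusted p = 0.0718). Of 27 rows for 22 regulators of keratin genes, 2 rose, or 7.41%, against 3.23% of all rows, and none fell, against 3.77%. These were the same 1 of 3 rows of Trp63 and that of Cebpa, a transcription factor active in the upper epidermis (1177 to 1607, 0.45 ± 0.12, limma adjusted p = 0.0489). Of 14 rows for 13 other intermediate filament genes none passed in limma, with 3, or 21.4%, at an unadjusted p under 0.05. Des, which encodes desmin, went from 108070 to 84964 (-0.35 ± 0.13, limma adjusted p = 0.156), with no overlap between the groups.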

How the data were processed

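The authors deposited 1 linear probe intensity per array for each row; background correction, scaling and dye: not given in the sources used here (the label field names Cy3, the protocol Cy5). The annotation gave 1 symbol for 20377 rows and none for 6046, and all 57 member rows matched a current RefSeq symbol. Intensities under 38.8 were set to that floor, log2 was taken and the 3 hybridisations of an animal were averaged. Groups were compared with limma 3.58.1 (lmFit, eBayes; R 4.3.3), adjusted by Benjamini-Hochberg over 26423 rows. On simulated data for this comparison over 26423 rows, the fit recovered 18%, 76%, 98% and 100% of rows changed by 0.5, 1, 2 and 4 (log2), with 4 false calls. The changed rows, 50 of each size, were drawn from rows with a mean above background, and the noise was normal. The shares therefore do not cover dimmer rows. The labels do not say that the animals came from separate litters.

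Arrays were not treated as paired by hybridisation number. Deviations of same-numbered arrays correlated from -0.64 to 0.78, with a mean of 0.059, against a mean of -0.029 for arrays of different number. Alternatives covered scaling, floor, rows per gene, a filter on dim rows, the model and left-out animals or hybridisations. Named were the rows that passed, the 6 brightest, the 5 largest rises and falls among rows above background, Krt1, Krt5, Krt7, Krt8, Krt10, Krt14, Krt18 and Krt19, the rows next to the background level, and up to 4 genes of each companion list. Others (Krt77, Krt25, Krt42, Krt24, Krt35, Krt16, Krt17, the rows whose groups did not overlap, Ovol1, Cdh1, Epcam, Lgals2, Gm15760 and the neighbours of Krt79) were named after their values were seen. The members and lists were chosen with earlier results of these data known.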

Additional observations from a re-analysis of the deposited data

Results flagged for a closer look

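A single animal lay far from the other 3 of its group in 4 of the 46 groups examined, where chance marks about 1 in 20 groups, or 2.3 of 46. That rate is for rows not picked by their values, and the rows named here were in part so picked. All 4 were in the knockout. Krt8 was highest in knockout animal 2, at 1171 against 38.8 for the nearest, which is the floor at which the other 3 all lay. Krt7 was lowest in the same animal, at 1110 against 1458, and so was the bright row of Krtap14, at 253 against 337. Krt6a was lowest in knockout animal 4, at 1213 against 1464.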

How the results depend on the processing

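The count of keratin rows higher in the knockout, 1 as reported, was 0 with 1 row per gene, with rows of a gene averaged, with a constant of 50 added, with the floor at background, with the median of hybridisations, in either series of animal numbers in the labels, A or B, alone, and in the random-block fit of all arrays, the replicate block included or not. Leaving out an animal or a hybridisation number gave 0 to 1. The Krt78 row that passed lost its call in 17 of the 24 alternatives in which it was followed. Keratin rows lower in the knockout, 2 as reported, numbered 3 in the random-block fit with or without the replicate block, 0 in series A, 1 in series B and 0 to 2 with an animal or hybridisation number left out. Of all rows, 1850 passed as reported, 3277 under quantile normalization, 3062 under cyclic loess, 4058 in the random-block fit, 3791 with the replicate block added, 17 in series A, 431 in series B, and 986 to 2239 with 1 animal or hybridisation number left out (986 without knockout animal 3, 1114 without control animal 1, 1141 without hybridisation 2). The hybridisation numbers were not treated as pairs, so the replicate block is given only here and for Krt75 and Krt1.

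Krt75 lost its call also in series A (limma adjusted p = 0.298) and without hybridisation 2 (0.0518) or 3 (0.0624). Krt19 lost it with the median of hybridisations (0.0712), without hybridisation 1 (0.063) or 2 (0.0548) and in series A (0.265) or B (0.094). Only 22 keratin rows were followed singly under the alternatives. Among these, calls were gained by Krt1 in both random-block fits and by Krt7 with the median of hybridisations (-0.58, limma adjusted p = 0.034). The random-block fits counted 3 lower rows, and the one besides Krt19 and Krt1 was not among the 22. Krt6a differed by 1.0 (log2) in series A and 0.06 in series B, and the difference between series was not tested. The counts above background ranged from 32 to 51 in the control and 34 to 51 in the knockout with the background level doubled and divided by 2. Of 570 values of single rows under an alternative, 0 reversed a call, and signs changed in 25 where no call stood. Why these values moved was not tested.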
